A study of Homo sapiens with 4 samples.

Results

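The genes described here are 10 genes of the bone morphogenetic protein (BMP) response, SMAD6, SMAD7, SMAD9, ATOH8, ID1, ID2, ID3, ID4, BAMBI and BMP4, in Hs746T cells. They were taken with all of their probes, 12 of the 34127 probes on the array, and make up 10 of the 19740 genes that a RefSeq accession names there. SMAD6 and ATOH8 were selected on their ratios in an earlier look at these arrays, where they stood among the largest rises shared by both ways of suppressing MET. The other genes are known members or targets of the same pathway, and they too were chosen with earlier results of these arrays known. The ratios of the 10 genes are therefore given as a description and not as support for their choice. Hs746T is an established human gastric carcinoma line that carries an exon-skipping mutation of MET together with MET amplification, and all 4 samples share this background. Each condition had 1 single-colour Agilent array for human transcripts, hybridised with total RNA labelled as cRNA, which makes 4 arrays in all. The DMSO cells received the solvent, the PHA665752 cells a small-molecule inhibitor of the MET kinase, the sc siRNA cells a scrambled siRNA and the MET siRNA cells the most effective of several siRNAs against MET. The cells given siRNA were harvested 48 h after transfection, while the dose and time of PHA665752 on the array are not given in the sources used here.

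BMPs are secreted ligands that bind paired type I and type II receptor kinases. The receptors phosphorylate SMAD1, SMAD5 and SMAD9, which join SMAD4, enter the nucleus and bind short GC-rich elements near target genes. Among the best known targets are the ID genes, whose proteins bind basic helix-loop-helix factors and keep them off DNA, and several inhibitors that close a feedback loop. SMAD6 and SMAD7 are inhibitory SMADs that block the receptors or compete for SMAD4, and BAMBI is a pseudoreceptor without kinase activity. ATOH8 is a basic helix-loop-helix transcription factor described as a BMP target in endothelial cells and in liver.

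The sequences upstream of 6 of the genes are shown because binding elements of BMP-activated SMADs are short GC-rich words and the genes printed include those with the highest ratios (SMAD6, ATOH8, ID2, BAMBI, SMAD9) and ID1, which differed from ID2 in direction. Each is the 250 bases before the RefSeq start in GRCh38.p14, written 5′ to 3′ on the strand of the gene. SMAD6 lies at chr15:66701986-66702235 on the plus strand, ATOH8 at chr2:85753741-85753990 on the plus strand, ID2 at chr2:8681806-8682055 on the plus strand, ID1 at chr20:31605039-31605288 on the plus strand, SMAD9 at chr13:36920239-36920488 on the minus strand and BAMBI at chr10:28677271-28677520 on the plus strand. Capitals mark the palindrome GGCGCC and the related word GGAGCC, read as GGCTCC on the other strand.
SMAD6: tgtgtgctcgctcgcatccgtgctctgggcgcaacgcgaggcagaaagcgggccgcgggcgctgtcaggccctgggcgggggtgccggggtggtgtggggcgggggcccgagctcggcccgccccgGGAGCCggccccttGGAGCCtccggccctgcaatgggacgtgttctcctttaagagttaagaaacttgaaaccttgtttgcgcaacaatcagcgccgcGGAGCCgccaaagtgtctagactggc
ATOH8: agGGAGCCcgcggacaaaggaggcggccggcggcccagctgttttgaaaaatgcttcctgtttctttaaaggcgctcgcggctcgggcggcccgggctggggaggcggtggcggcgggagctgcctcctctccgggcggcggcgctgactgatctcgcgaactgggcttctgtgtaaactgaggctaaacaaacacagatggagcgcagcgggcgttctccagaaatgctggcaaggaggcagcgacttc
ID2: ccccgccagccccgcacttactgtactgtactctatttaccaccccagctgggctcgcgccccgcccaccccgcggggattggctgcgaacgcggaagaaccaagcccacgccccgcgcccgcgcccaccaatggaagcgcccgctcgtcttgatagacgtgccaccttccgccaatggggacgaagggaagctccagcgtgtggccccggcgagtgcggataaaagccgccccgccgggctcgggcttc
ID1: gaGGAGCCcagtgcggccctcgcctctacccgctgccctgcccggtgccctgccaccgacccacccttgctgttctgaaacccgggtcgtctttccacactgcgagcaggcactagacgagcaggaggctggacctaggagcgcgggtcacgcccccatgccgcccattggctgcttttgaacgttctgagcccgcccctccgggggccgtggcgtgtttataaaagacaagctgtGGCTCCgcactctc
SMAD9: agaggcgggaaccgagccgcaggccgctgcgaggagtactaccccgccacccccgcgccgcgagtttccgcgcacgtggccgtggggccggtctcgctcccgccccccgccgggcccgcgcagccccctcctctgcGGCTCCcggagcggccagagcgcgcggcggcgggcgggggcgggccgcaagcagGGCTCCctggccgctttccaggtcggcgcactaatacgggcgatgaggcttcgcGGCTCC
BAMBI: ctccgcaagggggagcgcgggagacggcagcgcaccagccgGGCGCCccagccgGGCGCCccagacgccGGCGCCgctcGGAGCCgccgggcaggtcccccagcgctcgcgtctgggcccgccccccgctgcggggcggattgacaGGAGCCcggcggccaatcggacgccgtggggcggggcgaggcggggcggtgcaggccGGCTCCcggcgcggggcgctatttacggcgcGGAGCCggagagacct

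The word GGAGCC or GGCTCC was present 3 times upstream of SMAD6, 3 times upstream of SMAD9, 4 times upstream of BAMBI, 2 times upstream of ID1 and 1 time upstream of ATOH8. It was not in the ID2 window. Over all 35116 RefSeq promoters of this length, 30.6% held the word at least 1 time, 1.48% at least 3 times and 0.239% at least 4 times. Of the 10 genes, 9 held it in at least 1 of their 14 windows, SMAD7 and BMP4 having several starts. Counts by gene take all starts of a gene together and are not on the same footing as shares of single promoters. The palindrome GGCGCC, present in 16.4% of all promoters, stood 3 times upstream of BAMBI and was also found at BMP4. CAGAC or GTCTG, the shorter word bound by several SMADs, was present in windows of 5 of the 10 genes and in 38.0% of all promoters, but not upstream of SMAD6, ATOH8, ID2, ID1 or SMAD9. CANNTG, the E-box bound by basic helix-loop-helix dimers, occurred 2 times upstream of ATOH8, 1 time each upstream of ID2 and SMAD9, in windows of SMAD7, ID4 and BMP4, and in 61.8% of all promoters. The capital words do not overlap each other. The GC content of these windows was 68.0% at SMAD6 and 81.2% at BAMBI beside a median of 58.0% over all promoters. A match describes the sequence and does not show binding, and the lack of a match says only that the letters are not in this window.

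The arrays lay on a single slide and had 61.1% to 68.2% of their probes well above background, which is the scanner software's mark for a spot brighter than its surroundings, with the lowest share on the MET siRNA array. MET itself (A_23_P359245, NM_000245) gave signals of 221451 with DMSO and 100492 with PHA665752, and of 190010 with sc siRNA and 77853 with MET siRNA. It was thus lower in the cells labelled MET siRNA, at a log2 ratio of -1.33. Of 11 gastric epithelial markers with a named probe, EPCAM, KRT8, KRT18, KRT19, TFF1, TFF2 and MUC6 were well above background on every array. A second MUC6 probe, A_33_P3314500, was not so on any. KRT20 and GKN1 were not so on any array either, and CDH1 was dim, with signals between 10.4 and 33.0. CLDN18 (A_33_P3240752) was well above background with MET siRNA only, at 62.6, at least 5.93-fold over sc siRNA, and its DMSO spot was left out as an outlier. The mesenchymal markers CDH2, FN1, SPARC and ZEB1 were well above background on every array. VIM, the remaining marker of that list, had signals of 291840 with DMSO and 276821 with PHA665752. Its spots on the sc siRNA and MET siRNA arrays were left out as outliers. Of the blood and endothelial markers, PECAM1, CD14, CDH5, VWF and PTPRC were also well above background on every array by their brightest probe. On these probes PECAM1 had signals between 304 and 1846 and PTPRC between 22.7 and 37.8. Among the other PTPRC probes, A_33_P3309526 was well above background with DMSO and PHA665752 only. A_33_P3364811 and A_33_P3364821 were not so on any array, nor were CD3E and HBB.

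Signals are the deposited linear intensities, and ratios are log2 differences after each array's 75th percentile was subtracted, so a ratio differs slightly from the plain quotient of the signals. The error beside a ratio is the scanner software's own estimate for the spots, which does not cover differences between cultures. With 1 array per condition no SD, test or p-value could be had, and "rose" or "fell" is used below only for a change past 2-fold. The pairs are not independent, because the DMSO array and the sc siRNA array each enter the comparison between the controls as well as that of their own treatment. Fewer cells that express a gene and less RNA per cell cannot be told apart in these bulk samples.

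With PHA665752, 6 of the 8 genes with a ratio rose past 2-fold over DMSO and 0 fell, beside 13.1% of 14322 named genes that rose and 8.04% that fell. The median log2 ratio of the 8 genes was 1.21, against 0.075 over all named genes. SMAD9 and BMP4 were near the line, and without them 4 genes remained past 2-fold with the 50th percentile, the median of probes well above background, quantile normalization or normexp. By probe, 8 of 10 rose and 0 fell, beside 12.8% and 7.43% of 23471 probes. With MET siRNA, 2 of the 8 genes, SMAD6 and ATOH8, rose past 2-fold over sc siRNA and 0 fell, beside 2.04% of 13647 named genes higher and 0.696% lower, and 2.12% of 21454 probes higher and 0.811% lower. The median with MET siRNA was 0.40, against -0.017 over all named genes. Between the controls, 2 of the 8 genes, BAMBI and ID2, were more than 2-fold higher with sc siRNA than with DMSO and 0 were lower, beside 2.89% of 14274 named genes higher and 1.16% lower, and 3.06% of 23629 probes higher and 1.13% lower. ID3 and ID4 gave no ratio, for reasons given with their values. The genes were chosen with ratios of both treatment pairs known, and the comparison of the controls shares arrays with those pairs. Nothing is therefore read from these counts, that between the controls included.

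**Figure D1:**
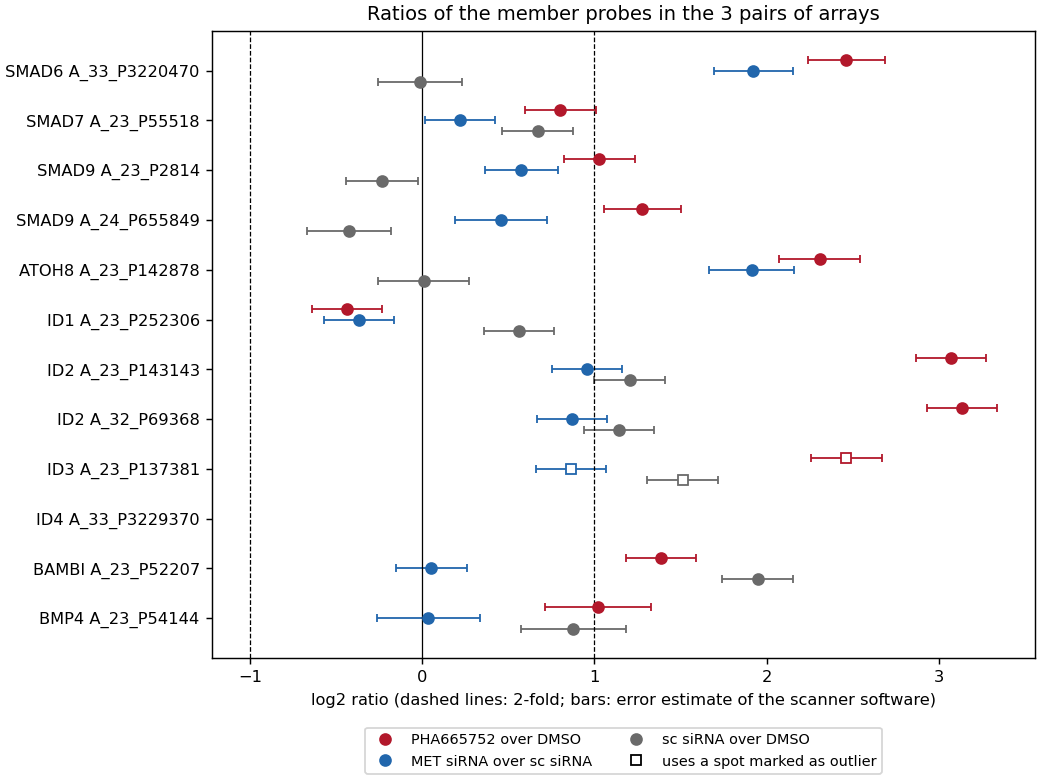
Log2 ratios of the 12 probes (rows) in the 3 pairs of arrays, with bars for the error estimate of the scanner software and dashed lines at 2-fold. SMAD6 and ATOH8 lie right of the 2-fold line in both treatment pairs and at 0 between the controls, whereas ID2 and BAMBI lie right of it between the controls; open squares (ID3) use a spot marked as outlier, and ID4 has no ratio.

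The inhibitory SMADs differed from each other. SMAD6 (A_33_P3220470, NM_005585) had a signal of 41.3 for DMSO, 34.4 for sc siRNA, 196 for PHA665752 and 135 for MET siRNA, each of them marked well above background. The treated arrays were both high and the control arrays both low. SMAD6 rose by a log2 ratio of 2.46 ± 0.22 with PHA665752, a 5.51-fold change that ranked 169 of 14322 genes from the highest. It rose by 1.92 ± 0.23 with MET siRNA, a 3.79-fold change that ranked 65 of 13647. The controls differed by -0.01 ± 0.24, within the software's error, and this ratio stood at rank 7186 of 14274. Normexp background correction with an offset of 50 brought the ratios of the treatments to 1.48 and 0.96, the latter short of 2-fold.

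SMAD7 (A_23_P55518, NM_005904), the inhibitory SMAD that also answers to TGF-beta, had a signal of 341 for DMSO, 455 for sc siRNA, 512 for PHA665752 and 547 for MET siRNA. The DMSO array was the lowest and the remaining arrays lay near each other. Its log2 ratio was 0.80 ± 0.20 in the inhibitor pair and 0.22 ± 0.20 in the siRNA pair. The controls stood 0.67 ± 0.20 apart, and none of the ratios was past 2-fold. The siRNA value turned to -0.08 when arrays were scaled to the median of their probes well above background.

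SMAD9, the receptor-activated SMAD of the BMP branch whose own transcription is a known readout of the pathway, had 2 probes. Probe A_23_P2814 (NM_005905) gave 137 for DMSO, 97.6 for sc siRNA, 241 for PHA665752 and 150 for MET siRNA. Probe A_24_P655849 (NM_001127217) gave 43.1, 27.0, 90.2 and 38.2 in the same order. On each probe the PHA665752 array was the highest and the sc siRNA array the lowest. SMAD9 rose with PHA665752 by 1.03 ± 0.21 on the first probe and 1.28 ± 0.22 on the second. With MET siRNA the ratios were 0.58 ± 0.21 and 0.46, and between the controls -0.24 and -0.42. The rise on the first probe was close to 2-fold, and it passed that line in only 3 of 7 alternative ways of processing, with a lowest value of 0.78. That on the second probe passed it in 5 of 7, with a lowest value of 0.80.

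ATOH8 (A_23_P142878, NM_032827) had a signal of 27.4 for DMSO, 23.1 for sc siRNA, 117 for PHA665752 and 90.0 for MET siRNA. As for SMAD6, both treated arrays were high and both control arrays low. ATOH8 rose by 2.31 ± 0.24 with PHA665752, a 4.95-fold change at rank 226 of 14322. It rose by 1.91 ± 0.25 with MET siRNA, a 3.77-fold change at rank 67 of 13647. The controls differed by 0.009 ± 0.27, within the software's error. The control signals of ATOH8 were only a few-fold above the dimmest signals that the software marked well above background, 10.8 for DMSO and 10.2 for sc siRNA, and normexp brought its ratios to 1.26 with PHA665752 and 0.88 with MET siRNA.

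**Figure D2:**
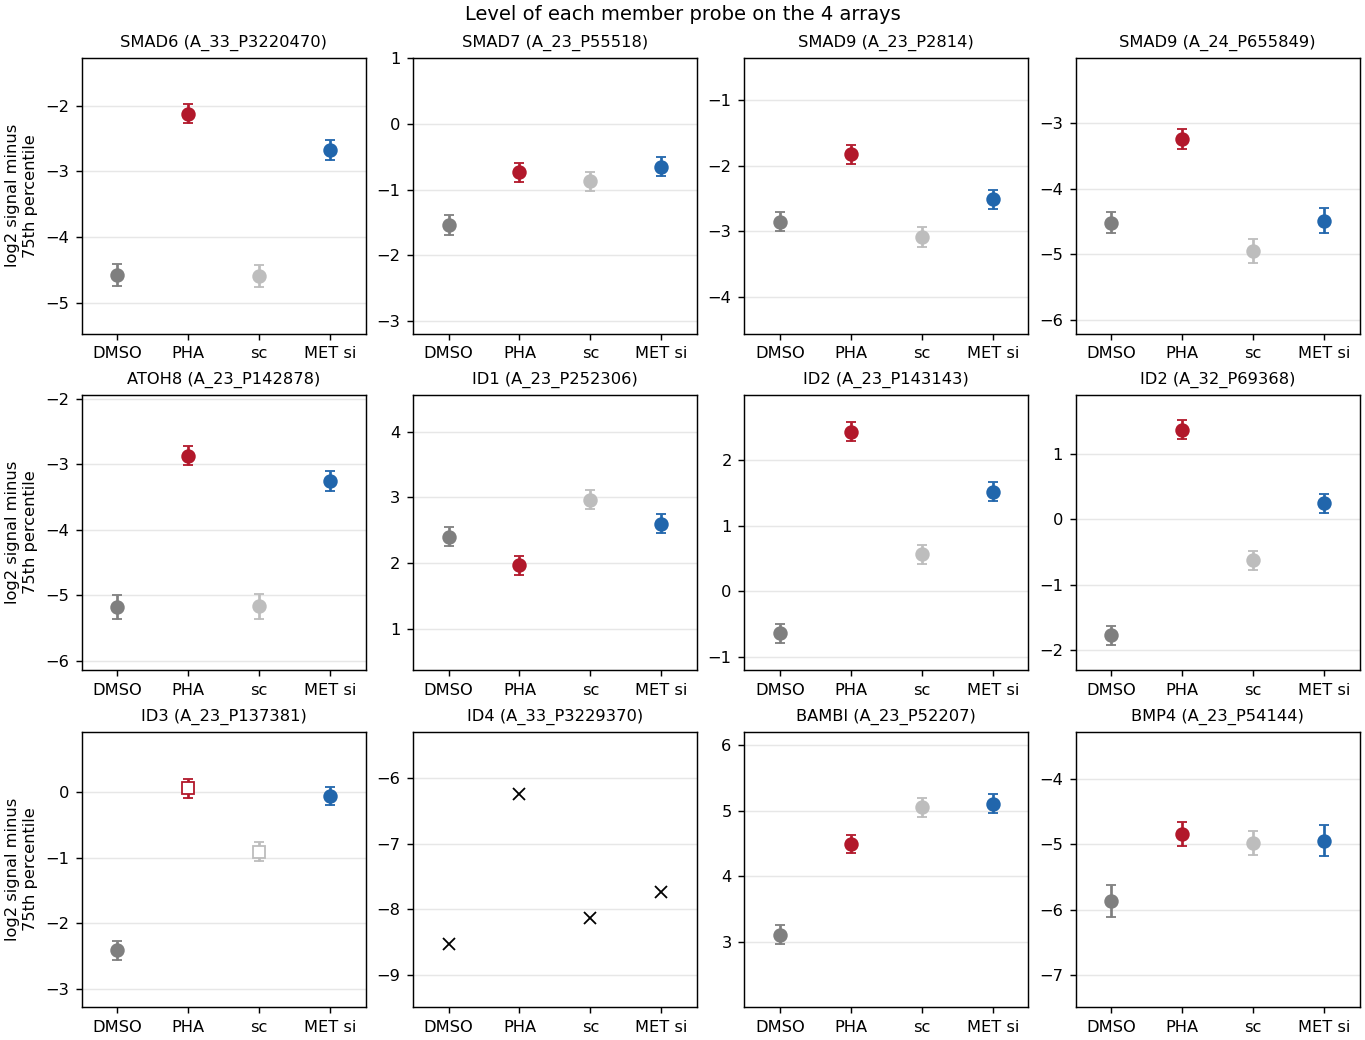
Scaled log2 signal of each probe on the DMSO, PHA665752 (PHA), sc siRNA (sc) and MET siRNA (MET si) arrays, 1 array each, with bars for the software's error; open squares are spots marked as outliers and crosses are spots not well above background. Every panel spans the same number of log2 units: SMAD6 and ATOH8 are high on both treated arrays, while BAMBI, BMP4 and SMAD7 are lowest on the DMSO array.

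The ID genes did not move together. ID2 (A_23_P143143, NM_002166) had a signal of 636 for DMSO, 1230 for sc siRNA, 4611 for PHA665752 and 2464 for MET siRNA. A second ID2 probe, A_32_P69368, gave 291, 539, 2200 and 1018 in the same order. Both probes put DMSO lowest, then sc siRNA, then MET siRNA and PHA665752 highest. ID2 rose with PHA665752 by 3.07 ± 0.20 and 3.13 on these probes, 8.40-fold and 8.78-fold, and ranked 49 of 14322 genes. With MET siRNA its ratios were 0.96 ± 0.20 and 0.87, just short of 2-fold, at rank 297 of 13647. Between the controls ID2 was higher with sc siRNA by 1.20 and 1.14, on both probes more than the siRNA ratio, with no test of that difference.

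ID1 (A_23_P252306, NM_002165), a common readout of BMP signalling, had a signal of 5225 for DMSO, 6484 for sc siRNA, 3335 for PHA665752 and 5198 for MET siRNA. Each treated array lay below its own control, and the sc siRNA array was the highest. The log2 ratio was -0.43 ± 0.20 in the inhibitor pair, -0.37 ± 0.20 in the siRNA pair and 0.56 from DMSO to sc siRNA, none past 2-fold. With the scaling used here ID1 was the only gene of the 8 below 0 in either treatment pair, at rank 11151 of 14322 and 12404 of 13647, and it was below 0 in both pairs under each of 7 alternatives.

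ID3 (A_23_P137381, NM_002167) had a signal of 186 with DMSO and 825 with MET siRNA, but its spots on the PHA665752 and sc siRNA arrays were marked by the software as outliers of the background and were left out, so no pair gave a ratio. ID4 (A_33_P3229370, NM_001546) was not well above background on any array, with signals of 2.68 for DMSO, 2.96 for sc siRNA, 11.2 for PHA665752 and 4.00 for MET siRNA. No ratio can be given for ID4, and the values say only that its signal was near the background.

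BAMBI (A_23_P52207, NM_012342) had a signal of 8537 for DMSO, 27614 for sc siRNA, 19232 for PHA665752 and 29610 for MET siRNA. The DMSO array was the lowest, and the siRNA arrays were the highest and close to each other. BAMBI rose by 1.39 with PHA665752, a 2.61-fold change at rank 1056 of 14322. With MET siRNA its ratio was 0.05 ± 0.20, within the error, and between the controls it was higher with sc siRNA by 1.95, a 3.85-fold change at rank 127 of 14274. BAMBI was thus higher with PHA665752 than with DMSO and higher still with the scrambled siRNA alone.

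BMP4 (A_23_P54144, NM_001202), the only ligand among the 10 genes, was dim, with a signal of 17.0 for DMSO, 26.2 for sc siRNA, 29.7 for PHA665752 and 27.8 for MET siRNA. The DMSO array was the lowest and the remaining arrays lay near each other. BMP4 rose by 1.02 ± 0.31 with PHA665752, and its ratio was 0.04 with MET siRNA and 0.88 between the controls. Its rise was past 2-fold in 3 of 7 alternatives and stood at 0.34 with normexp.

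Of the 8 genes measured on every array, 5 were lowest on the DMSO array (SMAD7, ATOH8, ID2, BAMBI and BMP4), where 25.7% of 13074 named genes measured on every array were lowest. The PHA665752 array was the highest for 5 of the 8 (SMAD6, SMAD9, ATOH8, ID2 and BMP4), beside 43.0% of these genes. The genes were chosen with ratios of both treatment pairs known, so nothing is read from these counts either. For ATOH8 and SMAD6 the DMSO and sc siRNA levels were within the software's error of each other, so their order on these arrays is not settled. For BAMBI, BMP4, ID2 and SMAD7 the sc siRNA level was above that of DMSO by more than this error. A low DMSO level adds to the ratio of PHA665752 over DMSO and to that of sc siRNA over DMSO alike. The DMSO and sc siRNA cells differed in transfection as well as in the agent, and these cannot be told apart.

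**Figure D3:**
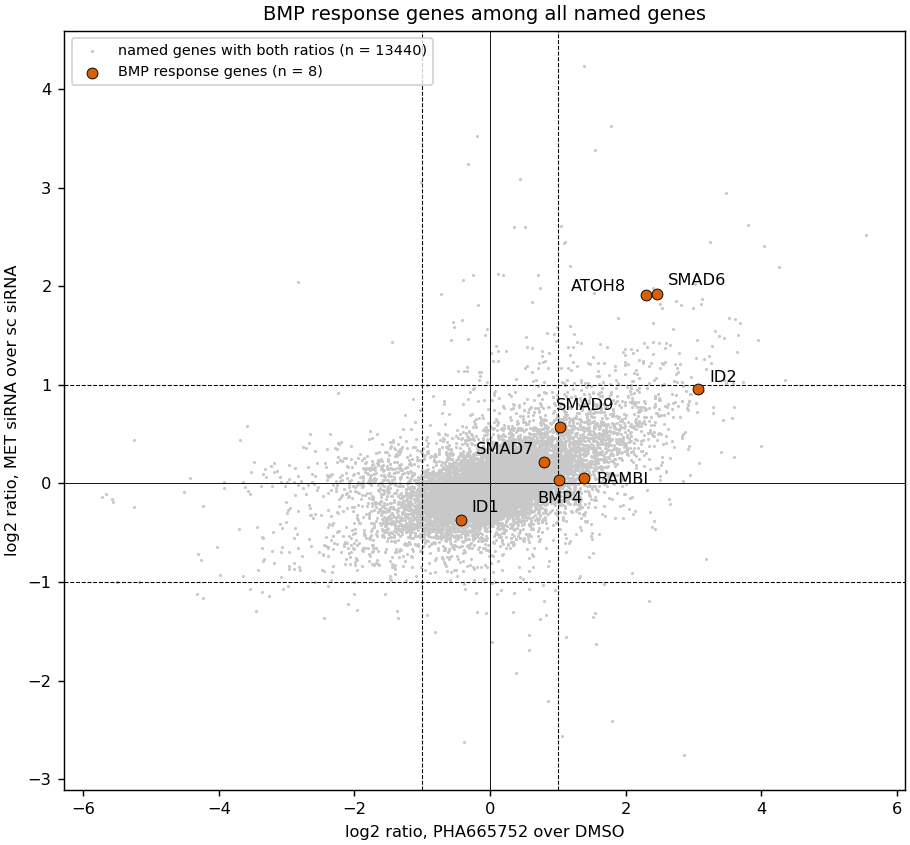
Log2 ratio of PHA665752 over DMSO (horizontal) against that of MET siRNA over sc siRNA (vertical) for 13440 named genes (grey) and 8 BMP response genes (orange), with dashed lines at 2-fold. SMAD6 and ATOH8 lie past 2-fold on both axes, ID2 at 3.07 and 0.96 just below the line for the siRNA, and ID1 below 0 on both.

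Of 13440 genes with a ratio in both treatment pairs, 137 (1.02%) rose past 2-fold in both, SMAD6 and ATOH8 among them by choice, and of 20657 probes 171 (0.828%) did. Likeness to these genes was measured as the Euclidean distance between the 3 log2 ratios of a gene and theirs, over 13074 genes well above background on all 4 arrays. SMAD6 and ATOH8 were nearest to each other, at a distance of 0.16. Both were chosen on their ratios in the treatment pairs, which enter this distance, so nothing is read from their nearness. FPR1, a receptor for formyl peptides on leukocytes, came next for both, at 0.37 from SMAD6 and 0.35 from ATOH8, with signals of 306 for DMSO, 293 for sc siRNA, 1396 for PHA665752 and 934 for MET siRNA. ARL14EPL, RDH12, a retinol dehydrogenase, and SLC12A8 followed for SMAD6 at 0.51, 0.51 and 0.58. RDH12, PDK4, a kinase that restrains pyruvate dehydrogenase, and ARL14EPL followed for ATOH8 at 0.53, 0.55 and 0.59. The 3 ratios share arrays, and the distance describes these 4 arrays only.

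The receptors were followed as a list of 13 type I, type II and co-receptor genes with BAMBI among them. With PHA665752, 4 of 10 with a ratio rose and 0 fell, beside 13.1% and 8.04% of all named genes, with a median of 0.51 beside 0.075. BMPR2, the type II receptor of BMPs, rose by 1.41, with signals of 75.4 with DMSO and 173 with PHA665752. ACVR2B, a type II receptor shared with activins, rose by 1.51, from 76.5 with DMSO to 188 with PHA665752, and had a ratio of 0.81 with MET siRNA. AMHR2, the type II receptor of anti-Müllerian hormone, was well above background on the treated arrays only, and was at least 6.48-fold higher with PHA665752 and at least 2.97-fold higher with MET siRNA. ACVR1, a type I receptor, had ratios of 0.98 on its brightest probe and 1.12 on the other with PHA665752. The type I receptors BMPR1A and BMPR1B had ratios of 0.03 and 0.04 with PHA665752, and the type II receptor ACVR2A had 0.007.

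With MET siRNA, 2 of 10 receptor genes rose and 0 fell, beside 2.04% and 0.696% of all named genes, with a median of -0.01. These were AMHR2 and BMPR1B, whose signal was 39.6 for DMSO, 32.3 for sc siRNA, 35.2 for PHA665752 and 78.9 for MET siRNA. BMPR1B was thus high on the MET siRNA array alone, at a ratio of 1.24. ACVR1, BMPR1A and BMPR2 had ratios of -0.11, -0.39 and -0.07. ACVRL1, the type I receptor of endothelial cells, was not well above background on any array.

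Among the SMADs and the SMAD ubiquitin ligases, SMAD6 and SMAD9 were the 2 of 10 genes that rose with PHA665752, and SMAD6 was the 1 of 10 that rose with MET siRNA, beside 13.1% and 2.04% of all named genes. The receptor-activated SMAD1 had ratios of 0.77 and 0.38 in the inhibitor and siRNA pairs, while SMAD5, of the same BMP branch, had -0.23 and -0.17. SMAD2 and SMAD3, of the TGF-beta branch, had 0.69 and 0.32 with PHA665752 and -0.13 and 0.27 with MET siRNA. SMAD4, the partner shared by both branches, had 0.26 and 0.10. The median of the 10, inhibitory SMADs included, was 0.51 in the inhibitor pair and 0.16 in the siRNA pair, the latter -0.14 when arrays were scaled to the median of their probes well above background.

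**Figure D4:**
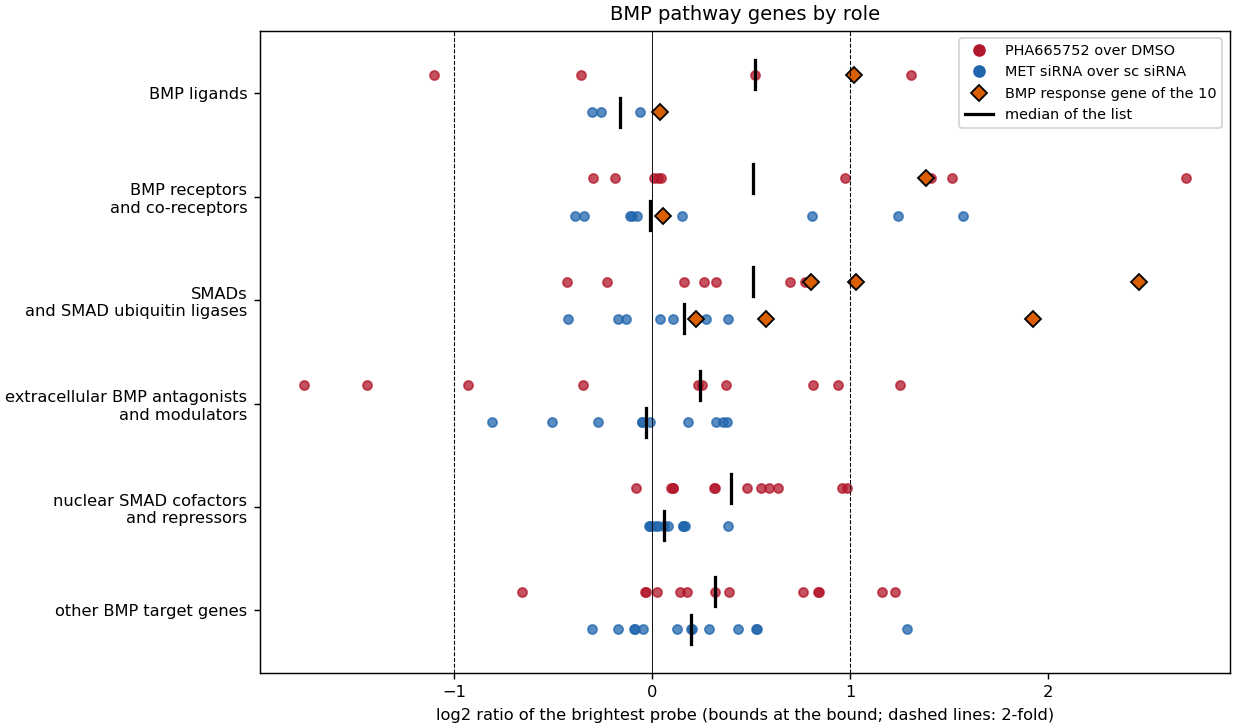
Log2 ratios of single genes (points, brightest probe) in 6 lists of BMP pathway genes by role, with PHA665752 in red, MET siRNA in blue, black bars at the list median and orange diamonds for genes of the 10. The diamond of SMAD6 is the point farthest right among the SMADs in both pairs, and no gene of the nuclear cofactor list lies past 2-fold on its brightest probe.

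Of 14 ligand genes, 5 had a ratio with PHA665752. GDF5 rose with PHA665752 by 1.31, on signals of 49.7 with DMSO and 106 with PHA665752, and BMP2 fell by 1.103, from 229 to 91.8. BMP2 had a ratio of -0.30 with MET siRNA and GDF5 of -0.06, and 0 of 4 ligands changed past 2-fold in that pair. BMP2 was thus lower with PHA665752 while BMP4, the closest of the ligands to it, was higher. Of 10 extracellular antagonists and modulators with a ratio, FST and BMPER fell and KCP rose with PHA665752. FST, the gene of follistatin, had signals of 1280 with DMSO and 326 with PHA665752, a ratio of -1.76. BMPER was well above background on the control arrays only and was at least 2.72-fold lower with PHA665752, and KCP rose by 1.25. NOG, the gene of noggin, had a ratio of -0.93, short of 2-fold, and 0 of 10 antagonists changed past 2-fold with MET siRNA. By the brightest probe, none of 12 nuclear SMAD cofactors and repressors passed 2-fold with PHA665752, and none of 11 with MET siRNA. Among their other probes, RUNX1 A_24_P96403 rose by 1.28 with PHA665752, and RUNX3 A_23_P51231 was well above background with MET siRNA only, at least 5.66-fold over sc siRNA. Beside the counts of these lists, 13.1% of all named genes rose and 8.04% fell with PHA665752, and 2.04% and 0.696% with MET siRNA. At these shares nothing is read from counts of 0 with MET siRNA in such short lists.

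Of 13 other BMP target genes with a ratio, 2 rose with PHA665752 and 1 with MET siRNA, and 0 fell, with medians of 0.32 and 0.19, the latter -0.11 under that same scaling. These shares stand beside 13.1% and 2.04% of all named genes. GATA4, a cardiac and gut transcription factor, rose by 1.23 with PHA665752 on its brightest probe and had a ratio of 0.12 with MET siRNA. Its probe A_33_P3360363 gave 0.91 with PHA665752, short of 2-fold, and 0.18 with MET siRNA. Its probe A_33_P3293456 was not well above background on any array. JUNB, an AP-1 subunit, rose by 1.16 with PHA665752 and was 0.43 with MET siRNA, with -0.96 between the controls. DLX6, a homeobox factor of skeletal development, rose by 1.29 with MET siRNA and was 0.76 with PHA665752, with -0.93 between the controls. The targets beyond the 10 genes thus had lower medians than the 8 measured here in both pairs, and the 10 were chosen with ratios of these arrays known.

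**Figure D5:**
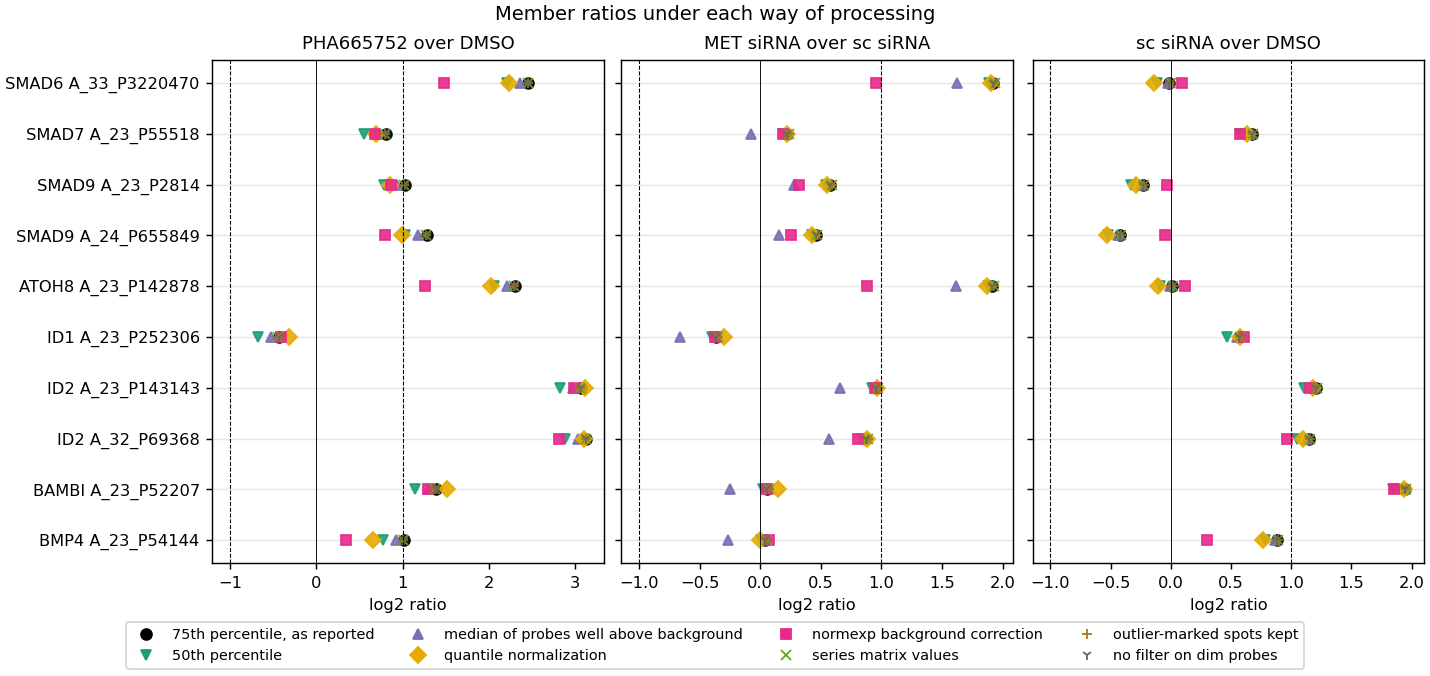
Log2 ratio of each probe with the processing as reported (black circles) and under 7 alternatives (other symbols) in the 3 pairs, with dashed lines at 2-fold. The normexp values (pink squares) of SMAD6 and ATOH8 stand left of the others in both treatment pairs, at 0.96 and 0.88 with MET siRNA, and scaling to the median of probes well above background (triangles) moves every siRNA ratio to the left.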

How the data were processed

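Feature Extraction output of 4 arrays of Hs746T cells was used. The authors deposited the processed intensity of each spot, a linear value after background subtraction, with no normalization between arrays; the file headers name Feature Extraction 11.5.1.1. The study's GeneSpring settings are not given in the sources used here, and the array was annotated on hg19. Control spots and spots marked as outliers were left out, log2 intensities of a probe's spots were averaged, and each array's 75th percentile was subtracted. The largest difference between the deposited series matrix and the processed intensity was 0.050 for 33128 probes spotted once.

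Probes were named by RefSeq accession through a GRCh38.p14 table (25771 of 34127), and the brightest probe stood for a gene in ranks and lists. Where only 1 array of a pair marked a probe well above background, the ratio is a bound, for which the dim array was given its dimmest signal so marked, or the probe's own signal if higher. Probes spotted 10 times had a median SD between spots of 0.0531 to 0.0589 on the log2 scale. The 2-fold threshold is a rule of size, and having 1 array per condition limits the precision. The 10 genes and the 11 other gene lists were chosen with earlier results of these data known. Named were all probes of the 10 genes, the BMP receptors and SMAD1 to SMAD5, list genes past 2-fold in either treatment pair, the 5 genes nearest to SMAD6 and to ATOH8, MET and the cell type markers.

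The alternatives were the 50th percentile, the median of probes well above background, quantile normalization, normexp with an offset of 50 on the median spot intensity, the series matrix, outlier-marked spots kept, no filter on dim probes, a threshold of 1.5-fold and the median over a gene's probes. The rules were tested on simulated data. Normexp ran in limma 3.58.1 under R 4.3.3, and all else in Python 3.11.15 with pandas 2.3.3 and numpy 2.4.6, with figures by matplotlib 3.10.9. Promoters came from RefSeq.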

Additional observations from a re-analysis of the deposited data

Results flagged for a closer look

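ID3 (A_23_P137381) had signals on the PHA665752 and sc siRNA arrays that no comparison used, because the software marked both spots as outliers of the local background. The signals of these spots were 891 with PHA665752 and 443 with sc siRNA, and the background beside each had a median of 38. With the marks ignored, the log2 ratio of ID3 was 2.46 with PHA665752 over DMSO, past 2-fold and above the DMSO control. It was then 0.87 with MET siRNA over sc siRNA and 1.51 between the controls, with DMSO lowest, as for ID2. Whether the local background affected these signals was not tested.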

How the results depend on the processing

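No paired analysis was possible because each condition had a single array. Of 210 ratios of the 10 probes with a ratio under the alternatives, 178 moved by less than the software's error and 32 by more, and 0 ratios past 2-fold turned sign. The median of the genes with PHA665752 was 0.96 with the 50th percentile, in place of 1.21, and the median with MET siRNA was 0.10 with scaling to the median of probes well above background, in place of 0.40. These scalings also moved the ratios of named genes in general, by a median over genes of -0.25 in the inhibitor pair and -0.30 in the siRNA pair, and quantile normalization moved them by a median of -0.12 in the inhibitor pair. The 50th percentile turned the balance of calls over all probes with PHA665752, to 2047 higher and 2696 lower from 3009 and 1744. Scaling to the median of probes well above background turned it with MET siRNA, to 291 higher and 413 lower from 454 and 174. Neither scaling turned it in the other treatment pair. With normexp 0 of the genes passed 2-fold with MET siRNA, in place of 2, with SMAD6 at 0.96 and ATOH8 at 0.88; the offset added to every signal lowers the ratios of dim probes by construction. At a threshold of 1.5-fold, 4 genes were higher between the controls, in place of 2. The siRNA ratios of BAMBI, BMP4 and SMAD7 turned below 0 with scaling to the median of probes well above background, at -0.25, -0.26 and -0.08. BMP4, ATOH8, SMAD6 and the second SMAD9 probe were dim on the control arrays, and ID4 was near background on each array.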

Other observations

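Target genes of TGF-beta, the sister pathway, were followed as a list of 10 genes that includes SMAD7. With PHA665752, 2 of 9 with a ratio rose and 0 fell, beside 13.1% of all named genes that rose and 8.04% that fell, with a median of 0.78 beside 0.075 over all named genes. COL1A1, a chain of type I collagen, had signals of 771 for DMSO, 696 for sc siRNA, 6631 for PHA665752 and 2098 for MET siRNA, and rose by 3.32 with PHA665752 and by 1.54 with MET siRNA. PMEPA1, an inhibitor of TGF-beta signalling, rose with PHA665752 by 1.53 on its brightest probe and 2.24 on the other, and had ratios of 0.68 and 0.70 with MET siRNA. CCN2, a matricellular protein gene, had a ratio of -0.81 in the inhibitor pair and -0.26 in the siRNA pair.

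Partners of the ID proteins and ATOH8 were followed as a list of 8 genes, with helix-loop-helix factors and the ETS factors ETS1 and ELK1. By the brightest probe, none of the 6 with a ratio passed 2-fold in either treatment pair. Beside this, 13.1% of all named genes rose and 8.04% fell with PHA665752, and 2.04% and 0.696% with MET siRNA. TCF3 and TCF12, which encode E proteins, had ratios of 0.17 and 0.25 with PHA665752, and TCF4, another E protein gene, had 0.61 with MET siRNA. Of 8 blood and endothelial markers, VWF rose in both treatment pairs, at 2.77 and 1.13, while PECAM1 fell with PHA665752, at -2.39, and CDH5 stood at -0.20 and -0.09. SMAD6 and ATOH8 are also expressed in endothelial cells, and whether any of these markers bears on their ratios was not tested. The mesenchymal markers FN1 and SPARC rose with PHA665752, at 1.96 and 1.33, and had ratios of 0.48 and 0.12 with MET siRNA. ZEB1 went the other way with PHA665752, at -0.73 on its brightest probe and -1.08 on the other, with -0.53 and -0.45 for MET siRNA, and CDH2 had 0.26 and 0.10 on its brightest probe. VIM had a ratio of 0.14 with PHA665752 and none with MET siRNA.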
